A study of Ovis aries with 16 samples.

Results

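The segment of chromosome 9 from 26 to 27.4 Mb (Oar_v3.1) was examined in the DNA methylation peaks of fetal longissimus dorsi (LD) muscle, the long muscle of the back. Its members were all merged peak regions that touched this stretch and had a peak in at least 2 of the 16 fetuses. There were 245 of them among 512238 such regions in the genome, and 18262 lay on the rest of chromosome 9. Samples were 8 fetuses from hay-fed ewes and 8 from corn-fed ewes. The hay ewes ate alfalfa haylage, and the corn ewes ate a limited amount of corn with a supplement and a little haylage, at an equal supply of metabolizable energy. By the intakes the paper lists, the hay diet gave more crude protein, methionine and choline, and the corn diet more folate. Both diets ran from mid-gestation to necropsy in late gestation in Polypay ewes, and fetuses are named here by diet and by the sample number in their labels. The paper lists every hay fetus and most corn fetuses as a twin of another sampled fetus, so each diet had fewer ewes than fetuses. Diets were given to ewes, whereas every n here counts fetuses. The labels do not say which samples shared a ewe, so p-values over fetuses are too small. Whole muscle was used, so a change in the methylation of a cell type and a change in the mix of cell types cannot be told apart. The tissue is as labelled, since peaks without gene positions gave no check by markers. Sequencing lanes are not tied to samples in the labels, so lane and diet cannot be told apart.

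DNA methylation in mammals is mostly the addition of a methyl group to cytosine in CpG dinucleotides, and it is laid down and copied by DNA methyltransferases. Most CpG sites of somatic tissues are methylated, whereas CpG islands at promoters are typically free of it. A methyl-binding domain (MBD) protein holds fragments that carry methylated CpG sites, so the yield of a region follows both its methylation and how densely it is filled with CpG sites. A peak is thus a stretch where captured reads piled up above the level that the peak caller took as background. The peak score used here is −log10 of the P-value given for each peak, and it rises with the strength of the pile-up. No genome or gene annotation of Oar_v3.1 was used here, so neither the base sequence of the regions nor the genes around them is given.

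The segment was chosen by the higher peak scores of corn than of hay in these same fetuses, above all at its members ending at 26635273 (1377 bp) and at 26698128 (6581 bp). Differences between the diets inside it are therefore given as a description, and no test of them is used as evidence. The name under which it was chosen, a segment higher in corn, held for a stretch of about 100 kb and not for the segment as a whole. Between 26600000 and 26700000 the mean log2 score was 0.27 higher in corn, and over the remaining regions it was 0.015 lower in corn.

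The members were mostly short and varied widely in how many fetuses carried them. Their median width was 741 bp, with a middle range of 328 to 896 bp and a maximum of 6581 bp. The median gap between neighbouring members was 2976 bp, against 1994 bp on the rest of chromosome 9. A peak was present in 2 to 4 fetuses at 86 members, in 5 to 11 at 90, in 12 to 15 at 51 and in all 16 at 18. Members carried by every fetus thus made up 7.35% of the segment, compared with 16.2% on the rest of chromosome 9 and 17.3% over the genome. A further 99 merged regions of the segment had a peak in a single fetus and were left out by the rule, while 43 members were just inside it with 2 fetuses. At the edges, the first member (25999155 to 26000016) had a peak in 8 corn and 6 hay fetuses, and the region just before it (25991065 to 25991455) in 2 corn and 1 hay. The last member (27398255 to 27398501) had a peak in 1 corn and 1 hay fetus, and the region just after it (27400952 to 27401138) in 2 corn and 0 hay.

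Compared within fetuses, the segment held fewer peaks than the rest of chromosome 9 in 16 of 16. Its peaks were narrower in 15 of 16 and weaker in 15 of 16. Peaks per Mb ranged from 58.6 to 149 over the 16 fetuses with a median of 117 in the segment, and from 91.5 to 195 with a median of 148 elsewhere on the chromosome. The segment was lower in 16 of 16 fetuses, with a mean difference of -37.4 ± 8.29 peaks per Mb (SD, n = 16; exact two-sided sign-flip permutation test, p = 3.05e-05, the smallest the test can give, adjusted p = 0.000122 over 4 measures). This test, here and below, measures how alike the fetuses are at a single stretch. Other stretches of chromosome 9 were not compared, so it cannot tell whether the segment is unusual among them. Median peak width was 264 ± 35.0 bp (SD, n = 16) in the segment and 312 ± 79.4 bp elsewhere, and it was narrower in 15 of 16 fetuses (same exact permutation test, adjusted p = 0.00061). The mean difference in width was -75.2 bp in corn and -21.4 bp in hay, and whether the diets differ in it was not tested. Peaks were called by the authors with a fragment length of 250 bp. The median width elsewhere was exactly 250 bp in corn 4, hay 3, hay 12 and hay 16. How far this setting bears on the widths was not tested. The median peak score was 1.45 ± 0.117 (SD, n = 16) in the segment and 1.52 ± 0.117 elsewhere, lower in 15 of 16 fetuses (exact permutation test, adjusted p = 0.000203).

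The share of regions in which a fetus had a peak was also lower in the segment. It was 48.6% ± 10.8 (SD, n = 16) in the segment and 53.4% ± 10.6 on the rest of the chromosome, lower in 15 of 16 fetuses (exact permutation test, adjusted p = 0.000122). Against the 1.4 Mb on each side in place of the whole chromosome, peaks per Mb stayed lower, with a difference of -52.1 (exact permutation test, p = 3.05e-05). The differences in score (p = 0.0794 in the same exact test) and in the share of regions with a peak (p = 0.157, also exact) then missed the 0.05 level. The plot of each fetus in the segment and outside it shows the lines falling in nearly every fetus of both diets.

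**Figure D1:**
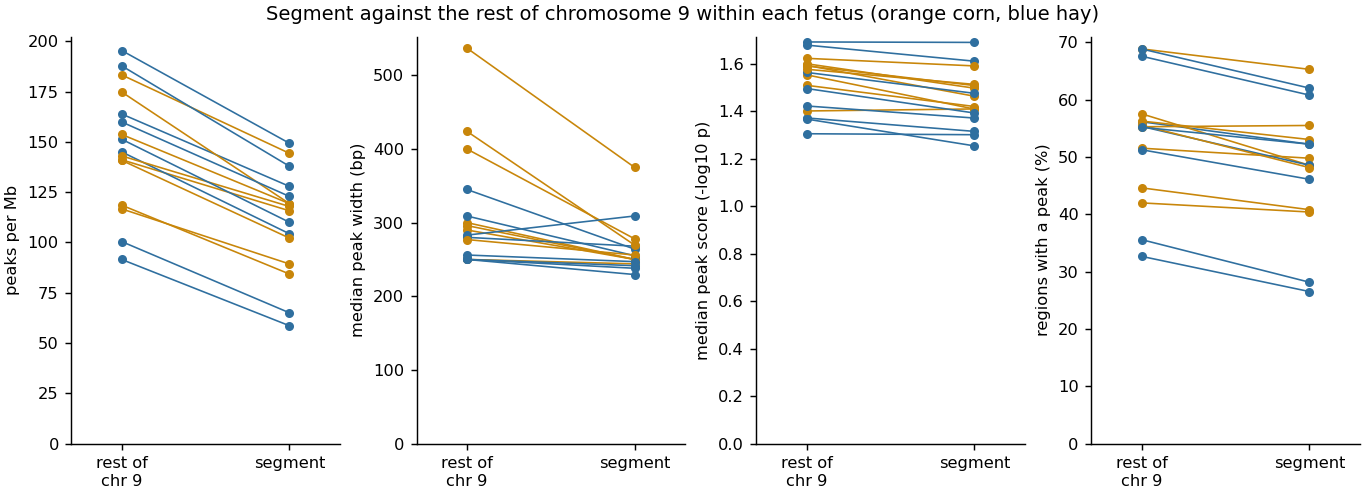
Peaks per Mb, median peak width in bp, median peak score (−log10 of the P-value) and percent of regions with a peak, for the rest of chromosome 9 and for the segment. Each line joins the values of 1 fetus (orange, corn; blue, hay), and 16 of 16 lines fall for peaks per Mb.

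How much of the segment a fetus covered followed its number of peaks in the genome. The members are themselves merged peaks of these fetuses, so such a relation largely follows from how they were made. It is not read as particular to the segment. The total number of peaks ranged from 261331 to 519923 in hay, while corn fetuses had 319977 to 499815, and read depth is not known here. Over the 16 fetuses the share of the 245 members with a peak rose with the number of peaks outside the segment (Pearson r = 0.86, permutation p = 3e-05, adjusted p = 0.00018 over 6 relations; Spearman rho = 0.816, permutation p = 0.00025, adjusted p = 0.00149). Without hay 11 and hay 15, the fetuses farthest from the median, r was 0.79 (permutation p = 0.00053). Within hay r was 0.97 (exact permutation p = 0.000198, adjusted p = 0.000595; rho = 0.97, p = 0.000496, adjusted p = 0.00149), and without hay 10 and hay 11 it was 0.877. Within corn r was 0.714 (exact permutation p = 0.0443, adjusted p = 0.0887; rho = 0.762, p = 0.0368, adjusted p = 0.0735), and without corn 4 and corn 7 it was 0.887. The median peak width of a fetus outside the segment did not show such a relation (r = -0.151, permutation p = 0.578; rho = -0.199, p = 0.457; adjusted p = 0.617 and 0.549), with r = -0.208 within corn and -0.467 within hay and r = -0.0905 without corn 9 and corn 14. Hay 11 and hay 10 had the fewest peaks of all fetuses and the lowest shares of the segment, 26.5% and 28.2%. They also had the lowest shares of all regions of the genome, 35.3% and 40.2%.

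**Figure D2:**
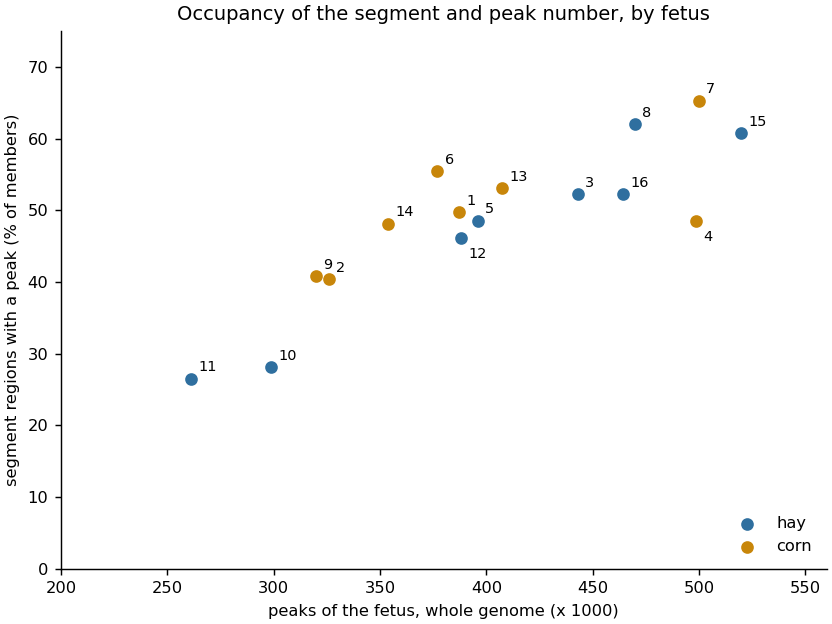
Percent of the 245 members with a peak (vertical axis) against the number of peaks of the fetus divided by 1000 (horizontal axis), 1 point per fetus with its sample number. Hay 10 and hay 11 sit at the lower left, at 28.2% and 26.5%, and corn 7 is highest at 65.3%.

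Over the whole segment the diets overlapped. In corn, the share of members with a peak was 40.4% in the lowest fetus, 49.2% at the median and 65.3% in the highest. In hay it was 26.5% in the lowest fetus, 50.4% at the median and 62.0% in the highest. The mean was 50.2% ± 8.07 (SD, n = 8) for corn and 47.1% ± 13.4 (SD, n = 8) for hay, so the mean was higher in corn and the median in hay. This difference of 3.11 percentage points was smaller than the SD of either diet, and over all regions of the genome it was 0.956 points. Without hay 10 and hay 11 it turned to -3.47 points, next to -4.43 points over the genome. That omission took the fetuses with the fewest peaks from hay alone. With corn 2 and corn 9, the lowest in corn, also left out, the means were 53.4% in corn and 53.7% in hay. Over the genome they were then 58.1% in corn and 59.3% in hay.

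Peak scores were compared after scaling between fetuses, as log2(score + 1) with 0 where no peak was called. The mean over the 245 members was 0.72 ± 0.12 (SD, n = 8) in corn, against 0.70 ± 0.18 (SD, n = 8) in hay. The corn minus hay difference of 0.018 compared with -0.020 over the genome and -0.018 on the rest of chromosome 9, and it became -0.068 without hay 10 and hay 11. Leaving out a single fetus was enough to turn its sign, to -0.013 without corn 7, -0.015 without hay 10 and -0.022 without hay 11. The median over members of their own difference was -0.0027. With hay 10, hay 11, corn 2 and corn 9 all left out, the mean log2 score was 0.76 in corn and 0.78 in hay. Peaks in the segment per 10000 peaks of the fetus, which divides by the total, came to 3.95 ± 0.320 (SD, n = 8) in corn, against 3.71 ± 0.414 in hay. The hay mean was 3.92 without hay 10 and hay 11, which had the lowest values of all fetuses, 3.05 and 3.14.

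By counts of fetuses, 93 members had a peak in more corn than hay fetuses, 74 in more hay than corn and 78 in equal numbers. These were 38.0%, 30.2% and 31.8% of the members, and the same rules gave 32.6%, 28.9% and 38.4% of all regions. Taking 6 fetuses of each diet, without the pair with the fewest peaks in each, the split was 79 toward corn and 84 toward hay, and over all regions it was 27.6% toward corn and 30.2% toward hay. Members with at least 4 more corn than hay fetuses numbered 10 (1.77% of all regions passed this rule), and those with at least 4 more hay than corn fetuses numbered 3 (0.936% of all regions). Of those 10, each corn fetus carried 6 to 9 and each hay fetus 0 to 5, and of those 3, each hay fetus carried 0 to 3 and no corn fetus any, as the rule itself favours. Since the contrast chose the segment, nothing is read from these shares.

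Pairs of fetuses shared less of the segment than of the genome. Of the members carried by either fetus of a pair, both carried a median of 53.0% in the 28 corn pairs (41.3% to 65.4%), 44.5% in the 28 hay pairs (32.2% to 54.4%) and 47.5% in the 64 mixed pairs (31.6% to 62.3%). Over all regions the medians were 61.1%, 53.8% and 57.0%. The order of the 3 kinds of pair was thus the same in the segment and in the genome.

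Along the segment, the diet difference was uneven. In steps of 100 kb, the mean corn minus hay difference of the log2 score was 0.27 in the step from 26600000 to 26700000. It lay between -0.13 and 0.18 in the other 13 steps. The lowest step ran from 26300000 to 26400000, with 5 members toward corn and 8 toward hay by counts of fetuses. The step from 26200000 to 26300000 had 0.18, with 8 of its 11 members toward corn and 0 toward hay. The plot along the segment shows the run of positive differences between 600 and 700 kb from its start and a scatter around 0 elsewhere.

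**Figure D3:**
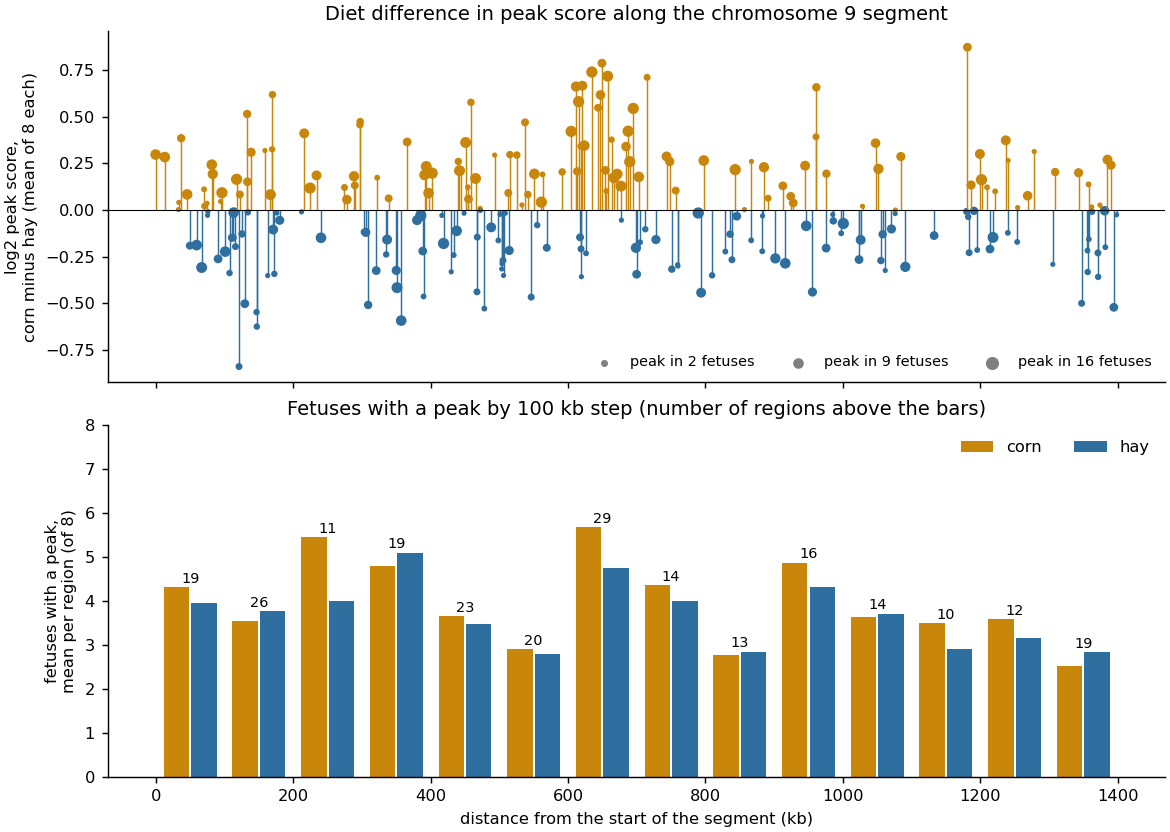
Upper panel, difference of the mean log2 peak score (corn minus hay, 8 fetuses each) of each of the 245 members against distance from the start of the segment in kb, with larger points for members carried by more fetuses. Lower panel, mean number of corn (orange) and hay (blue) fetuses with a peak per member in steps of 100 kb, with the number of members above the bars, where the step from 600 to 700 kb holds 29 members.

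The step from 26600000 to 26700000, singled out after its values were seen, includes both members that led to the choice of the segment. That choice favoured a higher score in corn here. The step held 29 members, the largest number of any step. Of these, 15 had a peak in more corn than hay fetuses (32.6% of all regions) and 6 in more hay (28.9% of all regions). With the 6 fetuses of each diet used above, the counts were 12 and 6. The mean log2 score over the 29 members was 1.04 in the lowest corn fetus, 1.32 at the corn median and 1.53 in the highest. In hay it was 0.80, 1.03 and 1.38, so the groups overlapped. The means were 1.32 ± 0.15 (SD, n = 8) in corn, against 1.05 ± 0.20 (SD, n = 8) in hay, and the difference of 0.27 was larger than either SD. It was 0.20 without hay 10 and hay 11. The share of the 29 members with a peak was 71.1% ± 9.02 (SD, n = 8) in corn, against 59.5% ± 14.6 (SD, n = 8) in hay. Without hay 10 and hay 11 the hay mean was 65.5%, and the difference went from 11.6 to 5.6 percentage points.

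This stretch also held 7 of the 18 members carried by every fetus, and all 7 had a higher mean log2 score in corn. Of the 18, 14 were higher in corn and 4 in hay, with a median difference of 0.17 and a range of -0.18 to 0.74. Over the 88488 regions of the genome carried by every fetus, 49.4% were higher in corn and the median difference was -0.0017. Scaling between fetuses was set on those same regions, so a nearly even split and a small median difference there follow from it. The 18 members also include the pair that led to the choice of the segment, so nothing is read from this comparison. A run of 3 neighbouring members, from 26686725 to 26698128, lay 44 and 154 bp apart and together spanned 11404 bp. The grid of scores shows the columns at 688 and 692 kb as bright in every fetus, while the first member of the run, at 687 kb, was lower, with log2 scores of 1.18 in hay 8 and 1.22 in hay 11.

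**Figure D4:**
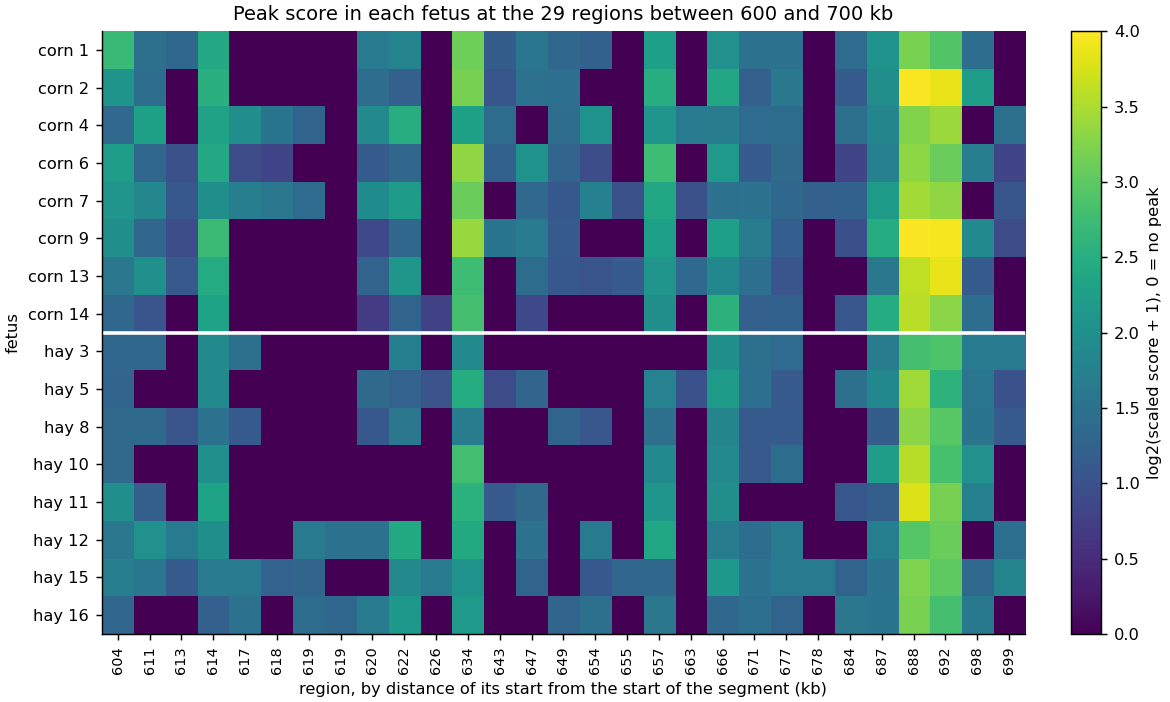
Scaled log2 score of each fetus (rows, corn above the white line and hay below) at the 29 members between 600 and 700 kb from the segment start (columns, in order), where the darkest colour means no peak. The columns at 688 and 692 kb are the brightest in most fetuses, and the columns at 634, 649 and 657 kb are brighter in most corn rows than in most hay rows.

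The member ending at 26635273 (1377 bp, 634 kb from the start of the segment) had a single peak in each of the 16 fetuses. Its score was 3.03 in the lowest corn fetus, 8.12 at the corn median and 11.8 in the highest. In hay the score was 2.22 in the lowest fetus, 3.1 at the median and 5.89 in the highest. All corn fetuses but corn 4 scored above every hay fetus before scaling, and 6 of 8 did so after scaling. The log2 score averaged 2.99 ± 0.36 (SD, n = 8) in corn, against 2.25 ± 0.37 (SD, n = 8) in hay, a difference of 0.74 that ranged from 0.66 to 0.84 when each fetus was left out in turn. The peak was also longer in corn, at 1089 to 1353 bp with a median of 1299 bp, than in hay, at 448 to 1308 bp with a median of 1004.5 bp.

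The member ending at 26698128 (692 kb from the start of the segment) was the widest at 6581 bp and held 2 to 5 peaks in each fetus. Its highest score was 6.94 in the lowest corn fetus, 11 at the corn median and 17.0 in the highest. In hay it was 5.03, 6.13 and 7.58, and the groups overlapped in that corn 1 and corn 4 scored below hay 11. The log2 score averaged 3.46 ± 0.39 (SD, n = 8) in corn, against 2.92 ± 0.18 (SD, n = 8) in hay, a difference of 0.55 with a leave-one-out range of 0.48 to 0.62. Bases under peaks also leaned toward corn, with a median of 5751.5 and a range of 5431 to 6318. In hay the median was 5343 and the range 4518 to 6217, so the groups overlapped. Hay 3, hay 5, hay 10, hay 11, hay 12 and hay 16 had fewer bases covered than any corn fetus. Hay 8 and hay 15, at 6217 and 6116, had more than all corn fetuses but corn 13. After scaling, 6 of 8 corn fetuses scored above every hay fetus.

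The neighbour just before it, from 26688179 to 26691393 (3215 bp), had the highest median score of the segment, 10.7. Its scores were 6.59 to 17.4 in corn with a median of 11.6, and 4.99 to 12.4 in hay with a median of 8.10. The groups overlapped widely, and the log2 difference was 0.26, below the SDs of 0.31 in corn and 0.32 in hay. Scores were therefore high in both diets at this member. The first member of the block, from 26686725 to 26688134, also had a peak in every fetus and a log2 difference of 0.42.

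Upstream in the same stretch, the member at 26614203 to 26616440 (2238 bp) had a peak in every fetus. Its score was 3.06 to 6.61 in corn with a median of 4.71, and 1.1 to 3.76 in hay with a median of 2.26. The log2 difference was 0.58, with 2.40 ± 0.21 (SD, n = 8) in corn, against 1.81 ± 0.34 (SD, n = 8) in hay, and 6 corn fetuses lay above every hay fetus. Peaks covered a median of 2002 bp in corn and 1161 bp in hay, and 7 corn fetuses had more bases covered than any hay fetus. At 26657062 to 26658281 (1220 bp), 8 corn and 7 hay fetuses had a peak, hay 3 being without one. Scores there were 2.53 to 7.42 in corn and 1.31 to 3.22 in the 7 hay fetuses, with a log2 difference of 0.72. The wide member at 26622173 to 26625072 (2900 bp), with a peak in 8 corn and 6 hay fetuses, had a log2 difference of 0.35 that turned to -0.11 without hay 10 and hay 11.

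**Figure D5:**
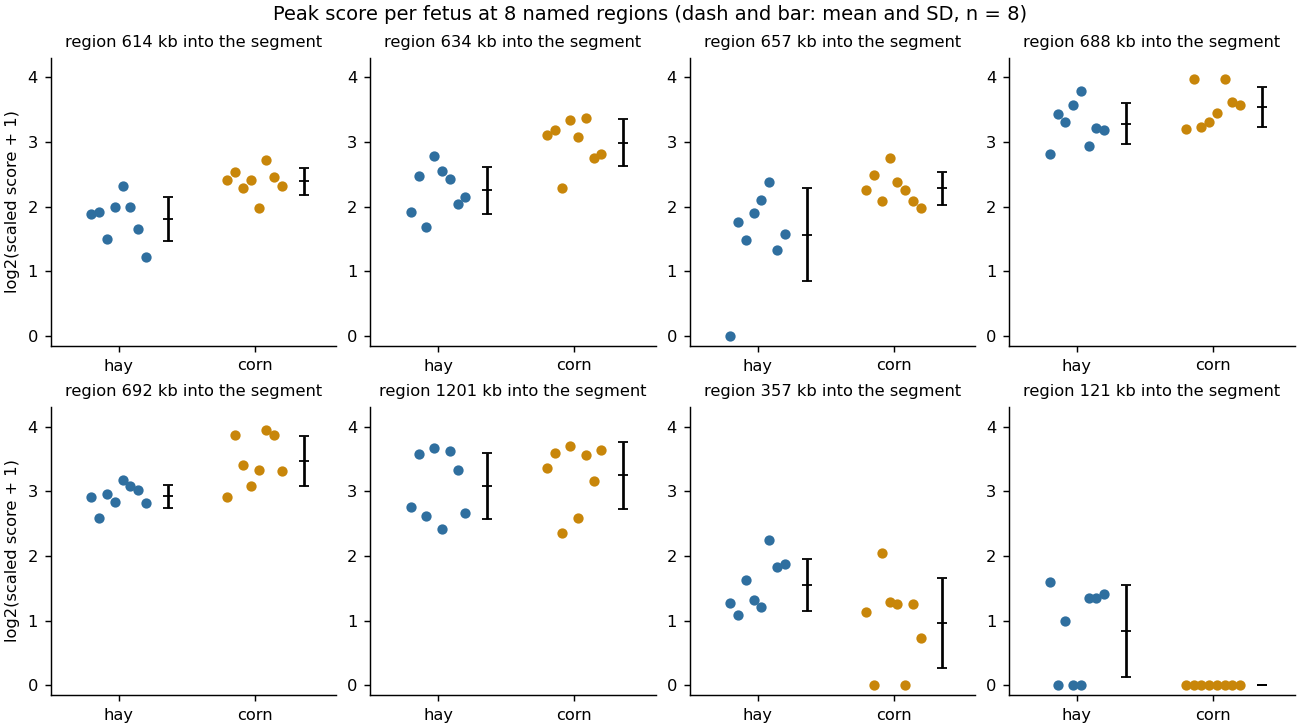
Scaled log2 peak score of each fetus at 8 members, titled by distance from the segment start in kb, with hay in blue, corn in orange and the mean and SD (n = 8) as a dash and bar. Corn points lie mostly above hay points at 614, 634, 657 and 692 kb, the diets overlap at 688 and 1201 kb, and hay is higher at 357 and 121 kb.

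The largest differences in presence were at members with scores between 0.997 and 2.26, where the median over all peaks was 1.47. At 27181066 to 27181466 (401 bp) a peak was called in 7 corn and 2 hay fetuses, with scores of 1.43 to 2.26 in corn and 1.31 to 1.4 in hay, and the log2 difference of 0.87 was the largest of the segment. At 26648920 to 26649683 (764 bp) it was again 7 corn and 2 hay fetuses, with scores of 1.18 to 1.89 in corn and 1.22 to 1.45 in hay and a log2 difference of 0.79. At 26714796 to 26715299 (504 bp) 5 corn and 0 hay fetuses had a peak, with scores of 1.16 to 1.55. Members with at least 5 more corn fetuses numbered these 3 (0.441% of all regions), and with at least 5 more hay fetuses 1 (0.149% of all regions).

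In the other direction, the 5 largest differences lay between 26120788 and 26478468. At 26120788 to 26121196 (409 bp) 5 hay and 0 corn fetuses had a peak, with scores of 0.997 to 1.68 and a log2 difference of -0.84. A close pair of short members, 26146392 to 26146643 and 26146776 to 26147075, each had a peak in 4 hay and 0 corn fetuses, with log2 differences of -0.55 and -0.62. At 26356602 to 26357547 (946 bp) 8 hay and 6 corn fetuses had a peak, and the log2 score averaged 1.55 ± 0.40 (SD, n = 8) in hay, against 0.96 ± 0.70 (SD, n = 8) in corn. At 26477726 to 26478468 (743 bp) 3 hay and 0 corn fetuses had a peak. Differences of at least 0.5 on the log2 scale numbered 15 toward corn (2.31% of all regions) and 8 toward hay (2.75% of all regions), and 9 of the 15 and 0 of the 8 lay between 26600000 and 26700000. Members carried by every fetus with such a difference toward corn numbered 3 (0.00527% of all regions), at 614, 634 and 692 kb.

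A strong member with a small difference lay at 27201263 to 27202410 (1148 bp), with a median score of 8.41 over the fetuses. Its scores were 3.22 to 15.9 in corn and 4.11 to 13.8 in hay. The log2 score averaged 3.24 ± 0.51 (SD, n = 8) in corn, against 3.08 ± 0.52 (SD, n = 8) in hay, a difference below either SD.

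In the fit of limma across all 512238 regions, 1 member had a Benjamini-Hochberg adjusted p under 0.1, the one at 634 kb, which was higher in corn. Of all regions, 0.000390% were called higher in corn, 0.000195% higher in hay and 0.000586% in either direction. That fit used the contrast that had chosen the segment, so the call describes these fetuses and supports nothing further. With peaks below the 25th percentile of score removed, limma called 0 members and 0 regions of the genome at that level. In that fit, 11 members higher in corn (2.13% of all regions) and 3 higher in hay (1.17% of all regions) had an unadjusted p under 0.05. The member at 692 kb was not called in the main fit, but it was with unscaled scores or a pseudocount of 5. At an unadjusted p under 0.05 the main fit gave 13 members higher in corn (1.73% of all regions) and 5 higher in hay (1.43% of all regions). Of the 13, 11 lay between 26600000 and 26700000, and the 5 higher in hay lay between 26120788 and 26356602. Without hay 10 and hay 11 these counts were 14 and 13, against 2.24% and 5.95% of all regions. No member had every corn fetus above every hay fetus (0.00332% of all regions) or the reverse (0.00273% of all regions).

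Over the genome, too, peaks were on average wider and scored higher in corn. The median peak width of a fetus was 351 ± 89.3 bp (SD, n = 8) in corn, against 283 ± 37.1 bp (SD, n = 8) in hay, and the median score was 1.54 ± 0.113 and 1.45 ± 0.0828. Scaling divided corn scores by 1.10 and hay scores by 0.938 on average, over a range of 0.765 to 1.38. Without scaling, the mean log2 difference over the segment was 0.089 in place of 0.018. The part of these genome-wide differences in the segment's values was not tested.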

How the data were processed

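DNA of fetal LD muscle from 8 hay and 8 corn fetuses was enriched with an MBD protein and sequenced. Reads had been cleaned by the authors with Trimmomatic 0.33, mapped with BWA-mem 0.7.15 (Oar_v3.1) and freed of duplicates in Picard 1.107. ChIPseeqer then gave peaks for each fetus separately, with no threshold or input control stated. The authors deposited a position and 1 further value per peak, read here as its P-value because the 6410742 values lie between 0 and 0.135. Read depth is unknown, and intervals that rest on it are not given.

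Peaks of all fetuses sharing at least 1 bp were merged. The score of a fetus in a region was its highest −log10 P-value, with the 1315 values of 0 set to 1e-100. Median ratios at the 88488 regions shared by all fetuses served to scale scores between fetuses, and log2(score + 1) was analysed. limma 3.58.1 in R 4.3.3 (eBayes with trend) was fitted over all regions. Its code was checked on shuffled rows with an added log2 shift larger than any difference in the segment. That check does not bear on differences of the size seen here. Other steps used Python 3.11.15 with pandas 2.3.3, scipy 1.17.1, matplotlib 3.10.9 and numpy 2.4.6. Groups came from sample titles. Within-fetus differences were tested by flipping signs in all 65536 ways, and correlations by 100000 permutations or, within a diet, all of them. Fetal sex, dam and lane are not given for the numbered samples and were left out. Named regions were the pair that led to the choice, those with at least 5 more fetuses of a diet or no overlap between diets, the 5 largest score differences each way, the 5 strongest carried by every fetus, the 3 widest and those at the boundaries. The members and lists were chosen with earlier results of these data known. Alternatives covered scaling, pseudocount, peak and region filters, merging, boundaries and the fetuses used. The gene table at hand was of another assembly and was not used.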

Additional observations from a re-analysis of the deposited data

Results flagged for a closer look

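Within each diet, the highest or lowest of 8 fetuses was compared with its nearest neighbour, relative to the range, in 29 sets of values. The median peak width in the segment was flagged for corn 14, at 375 bp against 278 bp in the next corn fetus. By chance about 1 in 20 such sets is flagged.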

How the results depend on the processing

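The number of members called by limma at an adjusted p under 0.1 was 1 (0.000586% of all regions). It was 4 with unscaled scores (0.00898% of all regions) and 2 with a pseudocount of 5 (0.00215% of all regions). With peaks below the 25th percentile of score removed it was 0, as it was over all regions. That fit gave 11 members higher in corn and 3 in hay at an unadjusted p under 0.05 (2.13% and 1.17% of all regions). Without hay 10 and hay 11, chosen after seeing the data, the number called was 4 (0.0519% of all regions). When each fetus was left out in turn, also chosen after seeing the data, it ranged from 1 to 4. Calls over all regions then ranged from 1 to 53, against 3 with all fetuses. It was 4 without hay 11 (53 over all regions) and 3 without hay 12 (12 over all regions). It was 2 without corn 1, corn 4, corn 6, corn 7 or hay 15, with 6 to 39 calls over all regions. Of the comparisons with the rest of chromosome 9, the difference in peak score became -0.024 and that in the share of regions with a peak -1.52 points when the 1.4 Mb on each side was used, and that in width became -35.0 bp (exact permutation test, p = 0.072) with 100 kb removed at each end. Leaving out each fetus gave -38.3 to -36.2 peaks per Mb, -53.2 to -40.7 bp, -0.0754 to -0.0652 in score and -5.08 to -4.47 points in the share. The corn minus hay share of members ranged from 0.175 to 5.25 points and the log2 score difference from -0.022 to 0.050 under the same omissions. Other alternatives left 202 members (at least 3 fetuses) to 291 (100 kb longer at each end). No analysis paired across the diets was possible because each ewe received a single diet. Without read depth a missing peak cannot be told from low methylation. The causes of these changes were not tested.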
